A study of Mus musculus with 9 samples.

Results

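The 6 sequence features described here were the dominant ones in mouse colon content, sampled under basal conditions and after dextran sodium sulfate (DSS), which causes colitis. They were chosen by their measured shares: each took over 10% of the counts in at least 1 of 9 samples, whatever its group. They were 6 of the 676 features seen in these samples, and the deposited table lists 782. Shares, and values derived from the same counts in the samples that set the rule, are therefore descriptions of how the 6 features behave, and their high maxima are not results.

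All mice carried a floxed Jup gene, which codes for plakoglobin, a component of the junctions that hold epithelial cells together. Jupfl/fl mice served as wild type (WT), and iVilCreERT2Jupfl/fl mice were the inducible knockout (KO), whose inducible Cre is driven by the promoter of villin, a gene of the intestinal epithelium. Samples were taken under basal conditions or after 2.5% DSS in the drinking water for 5 days. Each of WT basal, KO basal and WT DSS had 2 samples, and KO DSS had 3. The design text names n = 10 for the DSS treatment, and 9 samples over both conditions are analysed here. The sources used here do not give age, the schedule that induced Cre, cages, or whether each sample is a separate animal. The p-values thus measure only how far these 9 samples scatter, and some of that scatter may be technical. Host genes are outside this kind of table, and the deletion was not checked.

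The gut community of a mouse is usually made up of many rare and a few abundant members, and evenness describes how equally the counts are spread over them. Where a few members bloom, evenness is low even if the number of members stays the same. DSS injures the colonic epithelium, and blooms of single bacteria are a known feature of such inflamed guts. Counts per sample give shares of a total, so a share can fall because other members grew, and absolute amounts were not measured here.

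The features carry only hexadecimal identifiers, without a sequence or a taxon beside them. By mean share over the 9 samples, rank 1 was 4bcf61a7c6e38ee3264ff7654b83cebb, rank 2 was d8d889a018ba3bc3f9e109d45abf7d57 and rank 3 was 30907231438cda380cbac09516004cba. Rank 4 was 2b287d1a3efae7a71d338382047be8ab, rank 5 was 399325c13d8f80dbc54fb35a30a80ef7 and rank 7 was c27f7abd3abc4f5086d6019c9ef2e0d5. The feature of rank 6 was more abundant on average than that of rank 7 but never passed 10%, with a maximum of 7.89% in KO basal 1. Just inside the rule, rank 5 peaked at 11.6% in KO basal 1. Just outside it, rank 9 peaked at 9.26% in KO DSS 3 and rank 8 at 8.09% in WT basal 2. Total counts ran from 341216 to 451515 per sample, and the 95% Wilson interval of a member's share was never wider than ±0.166 percentage points. It covers counting error only.

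Together the 6 features held 55.5% and 7.31% of the counts of the WT basal samples and 32.3% and 27.5% of those of KO basal. They held 55.3% and 24.2% of WT DSS and 61.4%, 59.6% and 46.0% of KO DSS. The 2 samples of each WT group thus lay further apart than the KO basal samples did. Of the 54 values that 6 features have in 9 samples, 14 were over 10% and 32 were at 1% or more. In 8 of 9 samples at least 1 of the 6 passed 10%. WT basal 2 was the exception, and none of its 3 most abundant features was among the 6.

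**Figure D1:**
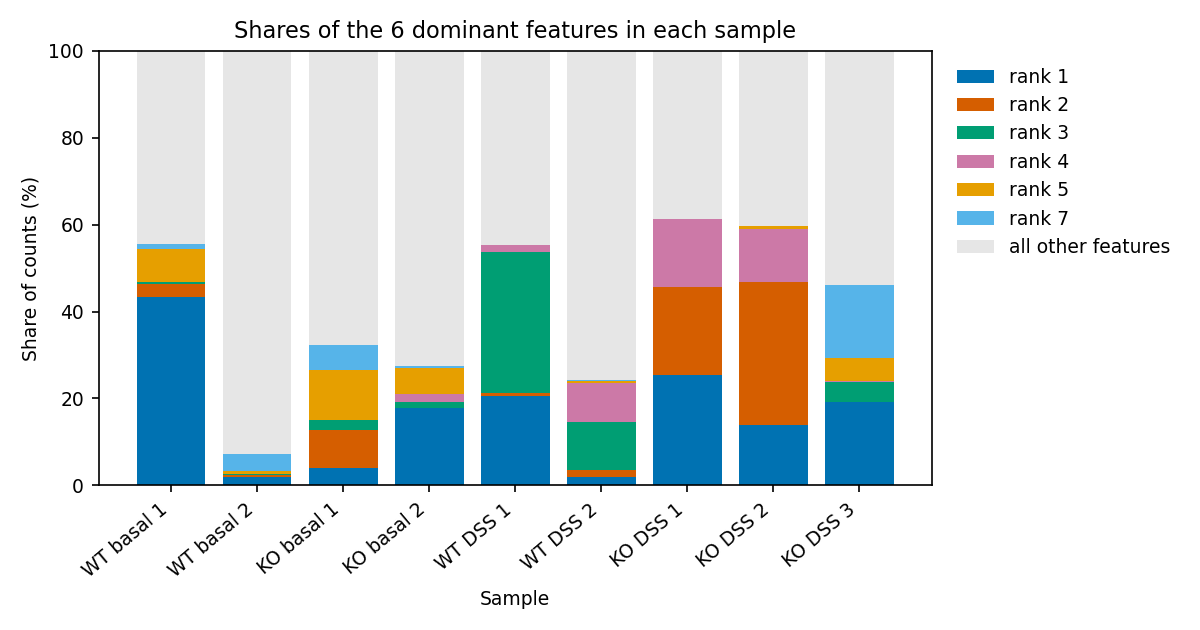
Stacked bars give the share of counts (%) of each dominant feature in each of the 9 samples, with all other features in grey. The coloured part ranges from 7.31% in WT basal 2 to 61.4% in KO DSS 1, and its make-up changes from sample to sample.

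Rank 1 was the only one of the 6 found above 1% in all 9 samples. Among basal samples, WT mice had 43.3% and 1.89% and KO mice 3.94% and 17.8%. After DSS, WT mice had 20.5% and 1.92% and KO mice 25.5%, 13.9% and 19.1%. The 4 groups overlapped, and the highest and the lowest sample, 22.9-fold apart, were both WT basal. It was the most abundant feature of 4 samples and among the first 3 in 6. Its median distance between samples of the same group was 1.52 on the log2 scale over 6 pairs, close to the 1.73 over the 30 pairs of different groups.

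Rank 2 reached its highest levels in a pair of KO DSS samples and was very low in the third. KO DSS samples held 20.2%, 32.8% and 0.0528%, against 0.765% and 1.51% for WT DSS. Without DSS, the shares were 2.99% and 0.391% in WT and 8.79% and 0% in KO mice. In KO basal 2 it had 0 of 367750 counts, which allows a share of up to 0.000816%. The lowest KO DSS sample lay below all 4 WT samples and the other two lay above them. Samples of the same group differed by a median of 5.75 on the log2 scale (pseudocount 0.5), against 4.46 between groups.

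Rank 3 was the leading feature of both WT DSS samples, with 32.4% and 11.2%. The WT basal samples had 0.377% and 0.324%, the KO basal samples 2.21% and 1.36%, and the KO DSS samples 0.0846%, 0.0322% and 4.66%. WT DSS thus stood above every other sample, and the KO DSS samples lay on both sides of the basal ones. Unlike rank 2, it was closer within groups (median log2 distance 1.46) than between them (3.74). Inside KO DSS, however, the sample with 4.66% stood far above the other two, by up to 7.17 on the log2 scale.

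Rank 4 was low in most basal samples and high in most DSS samples. Basal shares were 0.0213% and 0.0706% for WT and 0.0079% and 1.95% for KO mice. DSS shares were 1.5% and 8.94% for WT and 15.4%, 12.3% and 0.0852% for KO mice. KO basal 2 lay above WT DSS 1, and KO DSS 3 lay just above the 3 low basal samples. It was never the most abundant feature, but was among the first 3 in WT DSS 2, KO DSS 1 and KO DSS 2.

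Rank 5 showed the opposite order by value. It took 11.6% and 5.88% of KO basal and 7.66% and 0.620% of WT basal samples. With DSS it took 0.179%, 0.549% and 5.34% of KO and 0.0135% and 0.510% of WT samples. WT basal 2 was low for a basal sample and KO DSS 3 high for a DSS sample. Rank 5 led KO basal 1 and was among the first 3 of WT basal 1 and KO basal 2.

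Rank 7 was also lowest in DSS samples, apart from 1. KO DSS samples had 0.0124%, 0.0155% and 16.8% and WT DSS samples 0.0797% and 0.0547%. In basal mice the values were 1.18% and 4.01% (WT) and 5.76% and 0.511% (KO). Its highest value, in KO DSS 3, was 1347 times its lowest, in KO DSS 1, so the extremes came from a single group. For rank 3, 4 and 5 the highest sample was 1007, 1955 and 857 times the lowest.

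**Figure D2:**
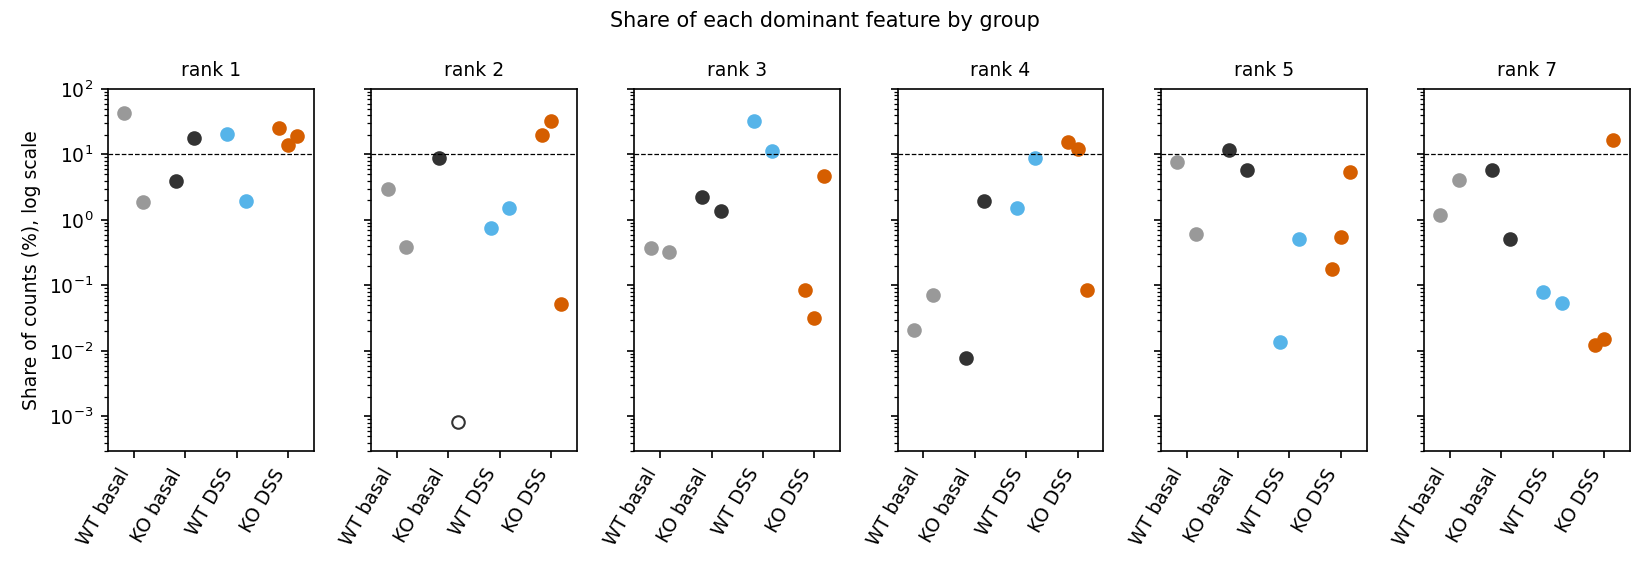
Each panel gives 1 dominant feature, with its share of counts (%, log scale) in every sample of the 4 groups, 1 point per sample. The dashed line marks the 10% rule, and the open circle stands for 0 counts, drawn at the share of 3 counts (0.000816%). Rank 1 stays above 1% in every sample, and rank 7 ranges from 0.0124% to 16.8% within KO DSS.

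The first comparison asked whether the dominant features differ between acute colitis and basal conditions, averaged over genotypes. In edgeR's quasi-likelihood test across 491 features, 0 of the 6 passed a Benjamini-Hochberg adjusted p of 0.05, against 1.83% of all features tested, and 2 of the 6 had an unadjusted p under 0.05, as had 84 of the 491. Rank 4 averaged 0.514% ± 0.961 (SD, n = 4) without and 7.65% ± 6.69 (SD, n = 5) with DSS. On the log2 scale that was 5.44 ± 1.99 (SE), and the adjusted p in edgeR was 0.13. Rank 5 averaged 6.44% ± 4.55 (SD, n = 4) without and 1.32% ± 2.26 (SD, n = 5) with DSS, which gave −3.55 ± 1.73 (SE) on the log2 scale and an adjusted p of 0.288 in edgeR. The log2 differences of rank 3 and rank 7 were 3.20 ± 1.78 and −1.80 ± 1.61 (SE), and those of rank 1 and rank 2 were 0.16 ± 1.63 and 0.22 ± 1.61 (SE). Single samples set the size of several of these: rank 3 was at 0.91 without KO DSS 3, rank 4 at 8.77 without KO basal 2, rank 5 at −1.20 without WT basal 1 and rank 7 at −0.15 without KO basal 1. The median log2 difference of the 6 was 0.19, beside 0.22 over all features tested. Both depend on the scaling. With library totals they were 0.32 and −0.12, with DESeq2 0.73 and 0.52, and with limma 0.72 and −0.26. Ranks 2, 3, 4 and 7 passed the rule that chose the members only in DSS samples, and rank 5 only in a basal one. The choice thus favours a higher median of the 6 with DSS. The DSS differences of ranks 2, 3, 4 and 5 go the way it favours, so these and their adjusted p-values are descriptions.

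In the edgeR test above, 1 sample decided whether rank 4 and rank 7 were called. Without KO DSS 3, rank 4 was higher by 5.95 ± 1.69 (SE) on the log2 scale with an edgeR adjusted p of 0.018, and rank 7 lower with DSS by a log2 difference of −6.11 ± 1.87 (SE) and an edgeR adjusted p of 0.0304. In that fit 4.82% of 477 features passed. The 4 other DSS samples held 0.0124% to 0.0797% of rank 7 and the basal samples 0.511% to 5.76%. For rank 5 the ranges were 0.0135% to 0.549% and 0.620% to 11.6%. These 2 of the 6 did not overlap once KO DSS 3 was left out, as was true of 6.92% of all features tested. That sample was left out after its values were seen. Rank 4 still overlapped, because KO basal 2 lay above WT DSS 1. It passed the rule that chose the members only in KO DSS 1 and KO DSS 2, so a DSS excess is part of that choice. Its adjusted p-values for DSS are therefore descriptions, in every fit. With all 9 samples, DESeq2 called 8.35% of the 491 features, rank 4 among them (log2 difference 5.87 ± 1.77 SE, DESeq2 adjusted p = 0.0134); rank 7 got no adjusted p there. On the same samples limma on centred log-ratios called none of the 491 (unadjusted p under 0.05 for 59 of them).

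The second comparison set KO against WT samples, averaged over treatments. Here 0 of the 6 passed in edgeR, against 0% of the 491 features. Unadjusted, 50 features were under 0.05, and DESeq2 and limma called 27 and 0. The member of smallest p was rank 7, whose mean was 1.33% ± 1.86 (SD, n = 4) for WT and 4.61% ± 7.21 (SD, n = 5) for KO mice. Its log2 difference was 3.84 ± 1.83 (SE), and its adjusted p in edgeR was 0.435. Without KO DSS 3 that difference turned to −0.71. Rank 2 averaged 1.42% ± 1.15 (SD, n = 4) for WT and 12.4% ± 14.1 (SD, n = 5) for KO mice, with 2.65 ± 1.74 (SE) on the log2 scale and an adjusted p of 0.751 in edgeR. This difference turned to −6.03 without KO basal 1. The median log2 difference of the 6 between genotypes was 2.45, beside −0.15 over all features tested. With library totals it was 2.32 beside −0.33, with DESeq2 2.26 beside −0.25, and with limma 0.89 beside 0.15. Ranks 2, 4, 5 and 7 passed the rule that chose the members only in KO samples, and rank 3 only in WT samples. The choice thus favours a KO excess of the set, and its median is a description. The same holds for the KO differences of ranks 2 and 7 above. In the interaction, which asks whether DSS acts differently in KO and WT mice, 0 of the 6 passed in edgeR, again against 0% of the 491 (44 at an unadjusted p under 0.05, 9 called by DESeq2 and 0 by limma). Rank 3 had an interaction of −5.62 ± 3.37 (SE) and rank 7 one of 5.92 ± 3.5 (SE) on the log2 scale, each with an edgeR adjusted p of 0.757. Without KO DSS 3 these were −10.63 and −3.02, so that of rank 7 turned, and without WT DSS 1 that of rank 3 was −3.60.

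Groups that did not overlap were counted as a second description. Between all DSS and all basal samples, 0 of the 6 were separated, beside 1.22% of features tested, and between all KO and all WT samples 0 of the 6, beside 1.22%. In WT mice 4 of the 6 were separated by treatment, rank 3 and rank 4 higher and rank 5 and rank 7 lower with DSS, where 2 samples face 2 and 28.1% of all features were separated. The separation of rank 3 there rests on the samples that chose it. In KO mice rank 5 alone was separated, lower with DSS (14.7% of all features), and KO basal 1 was the only sample in which it passed the 10% rule. KO basal stood apart from WT basal for rank 3 alone, which was higher (14.1% of all features). KO DSS stood apart from WT DSS for rank 3 alone, which was lower (16.5% of all features); the WT DSS samples are also the only ones in which rank 3 passed the 10% rule. The members' counts in these last comparisons are 1 of 6 each, near the share of all features.

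Which feature led changed from sample to sample, and none of the 15 pairs kept one order in all 9 samples. From most to least abundant, the order was 1, 5, 2, 7, 3, 4 in WT basal 1 and 7, 1, 5, 2, 3, 4 in WT basal 2. It was 5, 2, 7, 1, 3, 4 in KO basal 1 and 1, 5, 4, 3, 7, 2 in KO basal 2. The WT DSS samples had 3, 1, 4, 2, 7, 5 and 3, 4, 1, 2, 5, 7. KO DSS 1 and KO DSS 2 had 1, 2, 4, 5, 3, 7 and 2, 1, 4, 5, 3, 7, while KO DSS 3 had 1, 7, 5, 3, 4, 2. Rank 3 led both WT DSS samples, and rank 4 was last in 3 of 4 basal samples and no DSS sample. The leading member held 35.9% to 78.0% of the counts of the 6, and the first 2 together held 63.1% to 95.7%. Expressed as an effective number (the inverse Simpson index over the 6), between 1.59 members in WT basal 1 and 3.93 in KO basal 1 shared the dominant part.

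Ratios between members spanned wide ranges. From the lowest to the highest sample, the log2 ratio of a pair (pseudocount 0.5) moved by 7.83 for rank 5 over rank 7, the steadiest pair, and by 23.9 for rank 2 over rank 4, with a median of 16.7 over the 15 pairs. The spans of pairs with rank 2 rest in part on its 0 counts in KO basal 2. Rank 1 exceeded rank 4 in 8 of 9 samples and rank 5 in 8 of 9, but by ratios that ran from −2.22 to 10.98 and from −1.55 to 10.56 on the log2 scale. In only 5 of the 15 pairs were both members above 10% in one sample: rank 1 with ranks 2, 3, 4 and 7, and rank 2 with rank 4.

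One pair was never above 1% together in any sample, rank 4 and rank 7. In 5 samples rank 4 was at 1.5% to 15.4% and rank 7 at 0.0124% to 0.511%. In the other 4 samples rank 7 was at 1.18% to 16.8% and rank 4 at 0.0079% to 0.0852%. The first set held 4 DSS samples and KO basal 2, and the second held 3 basal samples and KO DSS 3, so the sets follow treatment in 7 of 9 samples. Each set has fewer than 6 samples and they lie apart, so a relation within them cannot be tested, and the pooled coefficient of this pair is not given. The pair was noticed after the values were seen.

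**Figure D3:**
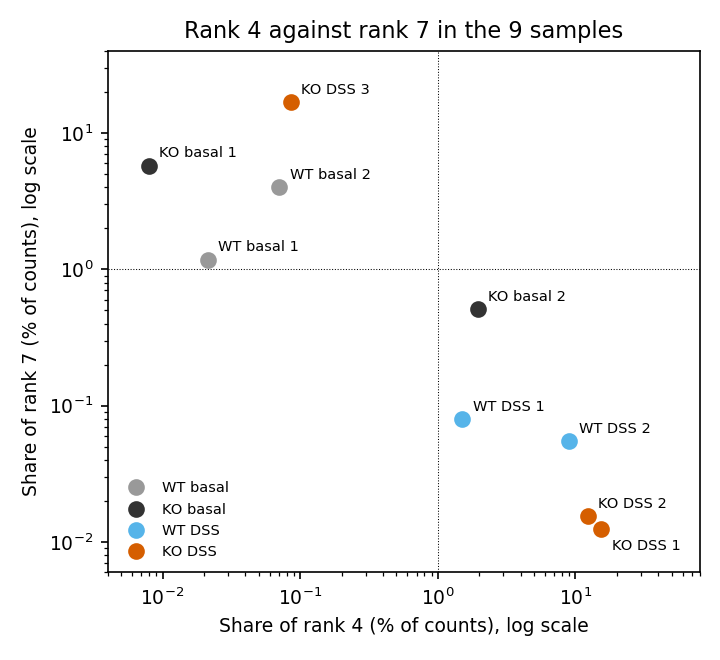
Each point is 1 of the 9 samples, with the share of rank 4 on the x axis and that of rank 7 on the y axis (% of counts, both log scales), coloured by group. Dotted lines mark 1%. The upper right field, where both would exceed 1%, is empty, and KO DSS 3 and KO basal 2 lie with the samples of the other treatment.

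Rank correlations of log2 shares across the 9 samples were computed for all 15 pairs, and 10 were negative. After Benjamini-Hochberg adjustment 0 of 15 passed by exact permutation, with 3 at an unadjusted p under 0.05. Ranks 5 and 7 went together by value (Spearman rho 0.70, exact permutation p = 0.0433, adjusted 0.216; Pearson r 0.65, exact permutation p = 0.0549, adjusted 0.412), and r was 0.69 without KO basal 1 and WT DSS 1. Ranks 4 and 5 went in opposite directions (rho −0.72, exact permutation p = 0.0369, adjusted 0.216; r −0.60, exact permutation p = 0.0846, adjusted 0.423), but r was −0.32 without WT basal 1 and KO basal 1. Shares of one total offset each other by construction, and choosing features for peaks in different samples favours negative coefficients as well. Rank 4 passed the 10% rule only in KO DSS 1 and KO DSS 2, and rank 5 only in KO basal 1. The p-values and the count of negative pairs are therefore descriptions. Set against the sum of all non-dominant features in place of the total, 9 of 15 coefficients were negative. The variance of the summed share was 0.71 of the sum of the 6 variances (0.841 without WT basal 1), a ratio that is below 1 where members offset each other. With counts over the non-dominant features the same ratio was 1.11.

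Other features were ranked by how steadily they kept their ratio to each member over the 9 samples, among 490 compared. The steadiest partner was rank 286 for rank 7, with an SD of the log2 ratio of 0.87, the only partner of any member below 1. It was found in 5 samples, absent from the 4 where rank 7 was below 0.1%, and never exceeded 0.577% of rank 7's count. For rank 4 the first 3 were ranks 329, 228 and 260 (SD 1.26, 1.39 and 1.77). They were found in 5, 6 and 5 samples and absent from WT basal 1, WT basal 2 and KO basal 1, where rank 4 was low, and their medians were 0.152%, 0.478% and 0.0861% of its count. Such low partners sit near the detection limit wherever the member is rare. Rank 1 was followed by ranks 139, 46 and 36 (SD 1.37, 1.5 and 1.52), which were found in all 9 samples at medians of 0.457%, 2.37% and 2.94% of its count. For rank 2 these were ranks 38, 15 and 40 (SD 2.09, 3.41 and 3.47), each missing from KO basal 2, as rank 2 was. Rank 3 had ranks 426, 408 and 352 (SD 1.88, 2.00 and 2.03), found in 3, 8 and 8 samples. Rank 5 had ranks 183, 322 and 69 (SD 1.66, 1.99 and 2.01), found in 9, 4 and 8 samples. Ranks 338 and 359 came next for rank 7 (SD 1.52 and 1.61), each found in 4 samples. Where a partner had 0 counts, its ratio rests on the pseudocount of 0.5.

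Evenness was measured with Pielou's index, the Shannon index over the log of the number of features, which is 1 when all are equal. With all features the WT basal samples had 0.508 and 0.754, the KO basal samples 0.651 and 0.673, the WT DSS samples 0.514 and 0.720, and the KO DSS samples 0.510, 0.522 and 0.567. With the 6 removed, the same samples had 0.695 and 0.751 (WT basal), 0.679 and 0.722 (KO basal), 0.703 and 0.763 (WT DSS), and 0.703, 0.750 and 0.646 (KO DSS). The range over the 9 samples narrowed from 0.508 to 0.754 down to 0.646 to 0.763, and the SD from 0.0982 to 0.0380 (n = 9). Removing features that hold much of a sample tends to raise its evenness by construction, so the size of the gain is a description. The gain was 0.187 in WT basal 1, 0.190 in WT DSS 1, 0.193 in KO DSS 1 and 0.227 in KO DSS 2. It was 0.0275 to 0.0796 in both KO basal samples, WT DSS 2 and KO DSS 3, and −0.00284 in WT basal 2. The 4 samples with gains above 0.1 were those where the 6 held 55.3% or more of the counts. By the inverse Simpson index, an effective number of features, KO DSS 2 went from 6.85 to 40.6 and WT basal 1 from 4.91 to 22.1, while KO DSS 3 went from 11.3 to 15.6.

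**Figure D4:**
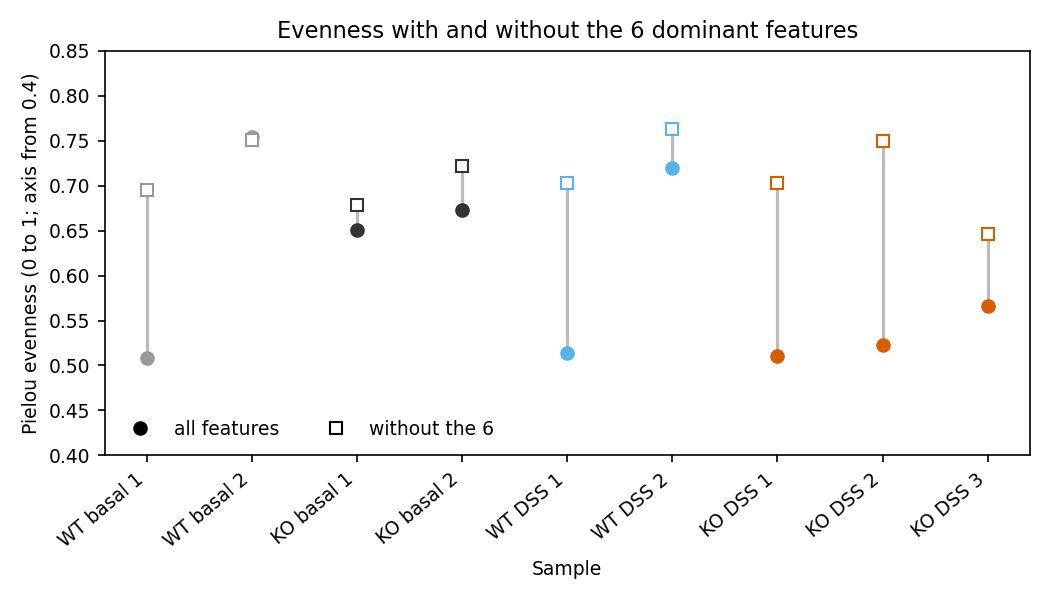
Pielou evenness of each of the 9 samples (y axis, no unit, drawn from 0.4 to 0.85), with all features as filled circles and without the 6 dominant features as open squares. The circles range from 0.508 to 0.754 and the squares from 0.646 to 0.763.

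What remained was led by different features. The most abundant remaining feature was rank 6 in WT basal 1, KO basal 1 and WT DSS 1, rank 8 in WT basal 2 and KO basal 2, rank 25 in WT DSS 2, rank 15 in KO DSS 1, rank 14 in KO DSS 2 and rank 9 in KO DSS 3. It held 5.64% of the remaining counts in WT DSS 2 and 17.2% in KO DSS 3. In KO DSS 3, the sample with the lowest evenness after removal, 3 remaining features held over 10% of what was left.

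In KO mice the 6 features held more of the counts with DSS than without, in every sample. Their sum was 29.9% ± 3.39 (SD, n = 2) in KO basal and 55.7% ± 8.41 (SD, n = 3) in KO DSS, a difference of 25.8 percentage points without overlap, given with no test because the members were chosen with such results known. Evenness with all features averaged 0.662 ± 0.0154 (SD, n = 2) and 0.533 ± 0.0297 (SD, n = 3), a difference of −0.129 without overlap (exact two-sided permutation p = 0.1, the smallest that 3 against 2 samples can give). Without the 6, KO basal averaged 0.700 ± 0.0306 (SD, n = 2) and KO DSS 0.700 ± 0.0519 (SD, n = 3), a difference of −0.000612 with overlapping groups. Ranks 2, 4 and 7 passed the 10% rule only in KO DSS samples, so the choice of members itself narrows this gap, and values without the 6 are given as descriptions with no test. In WT mice the sum differed by 8.31 points with overlap. Their evenness differed by −0.0143 with all features (exact permutation p = 1) and by 0.0102 without the 6, and the gap between genotypes was not tested. These comparisons within one genotype were added after the values were seen.

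Averaged over genotypes, the sum was 17.0 percentage points higher with DSS, from 4.98 without WT basal 2 to 29.1 without WT basal 1. It was 7.90 points for the 12 features that a 5% rule would choose. Evenness with all features differed by −0.0716 (exact permutation p = 0.333 over 60 arrangements within genotype, the smallest possible being 0.0167), or by −0.0101 without WT basal 2. Without the 6 it differed by 0.00478. The last value turned negative without WT basal 1, KO basal 1, WT DSS 2 or KO DSS 2 (lowest −0.0100). KO minus WT was 7.20 points for the sum, −0.0263 for evenness with all features (exact permutation p = 0.717) and −0.0282 without the 6. Leaving out WT basal 2 made the KO-WT difference −4.86 points for the sum and 0.0352 for evenness with all features, and leaving out WT DSS 2 made them −0.580 and 0.0252. Neither difference in evenness with all features passed 0.05.

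Lastly, the part of the difference between communities that the 6 carry was measured by the Bray-Curtis distance of shares, which runs from 0 for identical communities to 1. Over the 36 pairs of samples the 6 features made up a median of 41.5% of the distance (18.7% to 61.4%). Their mean summed share over the 9 samples was 41.0%, so their part of the distance was close to their part of the counts. Rank 1 was the largest contributor among the 6 in 15 pairs, ranks 2 and 3 in 9 each, rank 5 in 2, rank 7 in 1 and rank 4 in 0. Removing the 6 and rescaling the rest changed the median distance from 0.651 to 0.623, and within groups from 0.648 to 0.650. KO DSS 1 and KO DSS 2, the closest pair at 0.301 with all features, were 0.412 apart without the 6, and the nearest sample was the same for 7 of 9 samples. KO DSS 3 was nearest to WT basal 1 with all features and to KO basal 1 without the 6, a basal sample both times. In a permutational multivariate analysis of variance, treatment accounted for an R2 of 0.176 with all features (exact permutation p = 0.217) and 0.153 without the 6. For genotype the values were 0.135 (exact permutation p = 0.367) and 0.129. Without WT basal 1, which leaves 1 WT basal sample, the genotype R2 was 0.224 with all features and 0.190 without the 6. With any other sample left out, the value with all features was 0.121 to 0.177. Leaving samples out was not planned for these R2 values.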

How the data were processed

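The authors deposited a table of raw counts per sequence feature. Per the labels, DNA came from a fecal extraction kit, and libraries made with custom primers were read paired-end on a MiniSeq. The sources used here do not give the amplified region, denoising, low-count filters or software. The 9 columns named in the sample descriptions were used, and 7 others were not. Groups came from sample titles. The members and the lists of features were chosen with earlier results of these data known.

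The 491 of 676 features that reached 10 counts in at least 2 samples were tested with edgeR 4.0.16 (R 4.3.3; TMM factors, quasi-likelihood F-test, 1 mean per group). Benjamini-Hochberg adjustment ran over all features of a contrast. SE was taken as the size of the log2 difference divided by the root of F. Alternatives included limma 3.58.1 on centred log-ratios (pseudocount 0.5), DESeq2 1.42.0, library totals, other filters, thresholds of 5% and 20%, other indices, and each sample left out. Single values per sample were tested by exact permutation within the other factor, two-sided (NumPy 2.4.6, SciPy 1.17.1). The tests were checked on simulated data with known answers. For edgeR the pass condition used a low, fixed spread between samples, so it does not give the power in these data. Named partners were the 3 of smallest SD of the log2 ratio. Samples of a group differed well beyond sampling noise (chi-square at least 273 per degree of freedom), and each counted as 1. Reads from PCR are not independent molecules, so intervals and the 3-count floor cover counting error only.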

Additional observations from a re-analysis of the deposited data

Results flagged for a closer look

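Of 36 sets of values over the basal, DSS, WT or KO samples, 6 had a sample far from the others; chance marks about 1 set in 20, a rate that does not hold for features chosen by their highest sample or for sets that overlap. Rank 7 passed the 10% rule only through the KO DSS 3 value below. For rank 4, KO basal 2 held 1.95%, where no other basal sample passed 0.0706%, and WT DSS 2 held 8.94% against at most 1.5% in the other WT samples. For rank 5, KO DSS 3 held 5.34% against at most 0.549% in the other DSS samples, and WT basal 1 held 7.66% against at most 0.620% in the other WT samples. For rank 7, KO DSS 3 held 16.8% against at most 0.0797% in the other DSS samples. For evenness with all features, WT DSS 2 had 0.720 and the other DSS samples at most 0.567.

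For rank 3 the genotypes differed in opposite directions: KO minus WT was 1.43 percentage points under basal conditions and −20.2 with DSS, without overlap in either, a change of −21.7 points. Rank 3 passed the 10% rule only through the WT DSS samples, so the second value is part of what chose it. The difference in shares was not tested. On the log2 scale the interaction had an edgeR adjusted p of 0.757, a description for the same reason.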

How the results depend on the processing

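Between DSS and basal samples the 9 calls among 491 features became 41 with DESeq2, 0 with limma (59 at an unadjusted p under 0.05), 5 with library totals and 0 under a filter of 10 counts in 4 samples (26 at an unadjusted p under 0.05). DESeq2 gave 27 calls for KO against WT and 9 for the interaction. Leaving out 1 sample gave 0 to 23 and, for the interaction, 0 to 1. With the replicate block the counts were 21, 1 and 1, and ranks 4 and 7 passed for DSS; KO DSS 3, the only sample with its number, is then fitted exactly. The numbers are not known to pair samples (correlations of same-numbered deviations 0.0292 to 0.401), so no pairing is assumed.

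Rank 1 changed sign for DSS with library totals (−0.0822) and the replicate block (−0.23), and for KO with limma (1.13) and the replicate block (0.96). Rank 2 turned to −1.29 for KO with limma and rank 7 to −0.82 with the block, which also gave rank 7 an interaction of −1.84 and rank 3 a DSS difference of 0.59. With 1 sample left out, DSS differences ran from −1.70 to 2.81 for rank 1 (negative without WT basal 2 or WT DSS 1) and −0.23 to 9.17 for rank 2 (negative without WT basal 2). KO differences ran from −1.25 to 1.83 for rank 1 (positive without WT basal 1 or WT DSS 1), −6.03 to 4.38 for rank 2, −3.16 to 0.29 for rank 3 (positive without WT DSS 1), −0.37 to 3.30 for rank 4 (negative without KO basal 2) and −0.71 to 4.44 for rank 7. None of these passed. For the interaction, rank 1 (−2.34), rank 2 (−0.42) and rank 5 (−1.28) turned negative without WT basal 1, and rank 4 turned positive (3.47) without KO basal 2.

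For the sum, KO minus WT was −1.50 with a 20% rule and −4.86 to 19.3 with 1 sample left out. For evenness it ran from −0.0879 to 0.0352. Without the dominant features, evenness with DSS differed by −0.00448 under a 5% rule, −0.0244 under a 20% rule and −0.0100 to 0.0196 with 1 sample left out. The genotype R2 with all features was 0.121 to 0.224. Against the non-dominant counts, 1 pair was past 0.05 in place of 0, ranks 4 and 7, whose samples form sets apart, so nothing is read from it; ranks 1 and 5 had a rho of 0.0833. The cause of these shifts was not tested.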
